A study of Mus musculus with 2 samples.

Results

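The cytosolic ribosomal protein genes were followed through single immune cells of the mouse lung, together with their expressed paralogs and their pseudogene copies. Members were all gene symbols in the deposited matrix that begin with Rpl or Rps and a digit, plus Rplp0, Rplp1, Rplp2 and Rpsa. The rule took 423 of 55401 symbols. Of these, 77 were ribosomal protein genes, 46 of the large and 31 of the small subunit, and 15 were paralogs or retrogenes of them. Among these 15, the annotation lists Rpl6l, Rpl32l, Rpl37rt, Rps3a2, Rps3a3, Rps4l and Rps12l1 as processed pseudogenes. Another 12 symbols only share the prefix, among them 10 Rps6k kinases. The other 319 symbols contain -ps, the mark of a pseudogene, and are described apart.

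Cells positive for CD45, the surface protein of white blood cells, were sorted alive from digested lungs with an antibody to CD45.2 and profiled with the 10x 3′ v3.1 chemistry, which counts transcripts by unique molecular identifiers (UMIs). The labels name 1 wild-type and 1 Siah1a/2 knockout sample, both taken 7 weeks after the first dose of urethane, a carcinogen that induces lung tumours, so every cell came from a urethane-treated mouse. Siah1a and Siah2 are ubiquitin ligases. The sources used here do not give how the alleles were deleted, the mouse strain, the age or the number of animals per library. The matrix joins the libraries, and no label ties a barcode suffix to a genotype, so they are called library 1 and library 2 and no genotypes were compared. With 1 library of each kind no difference has a replicate check. Intervals are exact at 95% and cover counting error only, and cells are not replicates.

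Each ribosome is built from ribosomal RNA and a single copy of most of these proteins, made in roughly balanced amounts. Many of their messenger RNAs start with a cytosine followed by a run of pyrimidines, the terminal oligopyrimidine (TOP) tract, through which the kinase mTOR and the RNA-binding protein Larp1 control their translation. Lymphocytes that leave rest build ribosomes before they divide, whereas mature neutrophils are short-lived cells with little RNA. Ribosomal protein messages have also been copied back into the genome many times, which leaves processed pseudogenes without introns, some of them nearly identical to the parent.

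After filtering, 8066 cells of library 1 and 6113 of library 2 were kept, with medians of 8661 and 7875 UMIs. Cells were sorted into types by marker gates, that is by minimum UMIs of marker genes in a cell, and 13 gates held at least 50 cells in each library. Of 58 further marker genes checked in 16 gates, 54 were higher inside the gate than outside it in both libraries. The exceptions were Trbc1 and Trbc2 in regulatory T cells, Cd2 in gamma-delta T cells and Fcgr1 in non-classical monocytes. The leukocyte gene Ptprc stood at 1067 and 1139 CPM, where CPM is the counts of a gene scaled to a total of 1000000 UMIs. Among epithelial genes, Sftpc had 2 and 1 UMIs in all kept cells and Scgb1a1 6 and 10, but Epcam had 485 and 400 (5.65 and 6.78 CPM). The endothelial gene Pecam1 stood at 24.4 and 28.3 CPM. The red cell genes differed between the libraries, with 654 and 48 UMIs of Hbb-bs and 527 and 15 of Hba-a1. The libraries shared 11 barcode sequences. Barcodes with markers of more than 1 lineage, 565 in library 1 and 384 in library 2, were left out of every gate.

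Ribosomal protein genes made up 20.7% of all UMIs in library 1 and 19.0% in library 2. All 77 had UMIs, and their median level was 2601 CPM in library 1 and 2120 CPM in library 2. The order of the 77 levels was nearly the same in both libraries (Spearman 0.95 across genes, which are not replicates). Because each transcript is tagged at its 3′ end, these levels need no scaling by length. The 5 genes with the most UMIs were Rps24, Rpsa, Rpl32, Rpl19 and Rpl23. Rps24, a small-subunit protein, reached 5785 CPM in library 1 and 5323 CPM in library 2. Rpsa, a small-subunit protein also known as the laminin receptor, reached 4805 and 4939 CPM. Rpl32 stood at 5006 and 4336 CPM, Rpl19 at 4569 and 4765 CPM, and Rpl23 at 4729 and 4206 CPM. At the other end, Rpl13a, a large-subunit protein also linked to interferon-gamma signalling, stood at 379 and 251 CPM, and Rpl35 at 645 and 200 CPM.

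The starts of 8 named genes are shown, with and without a tract by the rule given below. The TOP tract is the sequence feature that this family is known for. Each line gives 15 bases before and 15 bases from the RefSeq start (build GRCm38.p6), read along the gene's own strand, with any tract in capitals, and Rps24 and Rpl22 have a pair of listed starts each.
Rpl35: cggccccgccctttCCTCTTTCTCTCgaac
Rps6: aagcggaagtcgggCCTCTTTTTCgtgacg
Rpl15: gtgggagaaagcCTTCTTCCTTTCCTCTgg
Rps24: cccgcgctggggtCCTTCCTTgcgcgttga
Rps24, other start: tccggcgccgtagccatcatggtgagtctc
Rps27: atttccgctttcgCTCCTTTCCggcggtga
Rpl41: cacacgggccggctcggaagtgacgacacc
Rplp0: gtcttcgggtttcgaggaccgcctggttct
Rpl22: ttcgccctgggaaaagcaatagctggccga
Rpl22, other start: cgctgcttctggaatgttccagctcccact
These windows lie at chr2:39005117-39005146 (minus strand) for Rpl35, chr4:86857353-86857382 (minus) for Rps6, chr14:18270972-18271001 (minus) for Rpl15, chr14:24490663-24490692 and chr14:24490738-24490767 (plus) for Rps24 and chr3:90213634-90213663 (minus) for Rps27. Those of Rpl41, Rplp0 and Rpl22 lie at chr10:128549154-128549183 (minus), chr5:115559452-115559481 (plus), chr4:152325711-152325740 (plus) and chr4:152324421-152324450 (plus). A tract was counted where at least 5 bases of C or T in a row began with C within 3 bases of the start, on the gene's strand only, since it is a feature of the transcript. Of the 77 genes, 57 matched a start in the RefSeq table, and 23 of these (40.4%) held a tract. The same rule found a tract at 3651 of 27025 genes (13.5%), at 13.0% of mitochondrial ribosomal protein genes and at 7 of 15 matched genes (46.7%) of a list of other known TOP genes. A match is a description of these letters. The rule missed a tract at several of the known TOP genes. A start without a match therefore does not show that the gene lacks a tract. Rpl35, Rps6 and Rpl15 all hold a tract, although Rpl35 was the gene furthest below 0 between the libraries and the other two lay furthest above, as described further on.

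The share of UMIs from ribosomal protein genes differed widely between gates. It was highest in NK cells (26.4% in library 1 and 24.1% in library 2), B cells (26.2% and 23.0%) and gamma-delta T cells (25.9% and 23.1%). CD8 T cells held 23.7% and 21.5%, T cells in no narrower gate 23.4% and 21.4%, and conventional CD4 T cells 21.5% and 21.1%. Mast cells (20.1% and 18.5%), type 2 conventional dendritic cells (cDC2, 18.3% and 18.0%) and regulatory T cells (17.6% and 15.4%) came next. Regulatory T cells therefore stood below the other T cell gates in both libraries. Below them stood non-classical monocytes (15.0% and 14.5%), C1q-positive macrophages (14.6% and 12.2%) and monocytes gated by Ly6c2 and Csf1r (13.0% and 12.2%). Neutrophils were lowest at 5.14% and 5.25%.

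Counting intervals of these shares were far narrower than most gaps between libraries (for example 26.1% to 26.3% in B cells of library 1), so the gap between libraries is the more useful yardstick. Most neighbours in this order differed by less than that gap. The steps from conventional CD4 T cells to mast cells (2.00 percentage points of the mean) and from Ly6c2 Csf1r monocytes to neutrophils (7.40 points) were larger than it. The share of summed UMIs was lower in library 2 in 12 of the 13 gates. In 3 gates the median over cells went the other way from the sum. It was 20.1% in library 1 and 21.5% in library 2 in conventional CD4 T cells, and 18.4% and 18.7% in cDC2. In neutrophils, where the sum was higher in library 2, it was 3.83% in library 1 and 2.83% in library 2, from 65 and 119 cells with medians of 2516 and 2680 UMIs. Gates differed in depth as well, with median UMIs in library 1 from 2516 in neutrophils to 11190 in macrophages, and the part of depth in the order was not tested. B cells had medians of 3292 and 3174 UMIs. The ratio of large-subunit to small-subunit UMIs lay between 1.04 and 1.16 in every one of these 13 gates.

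**Figure D1:**
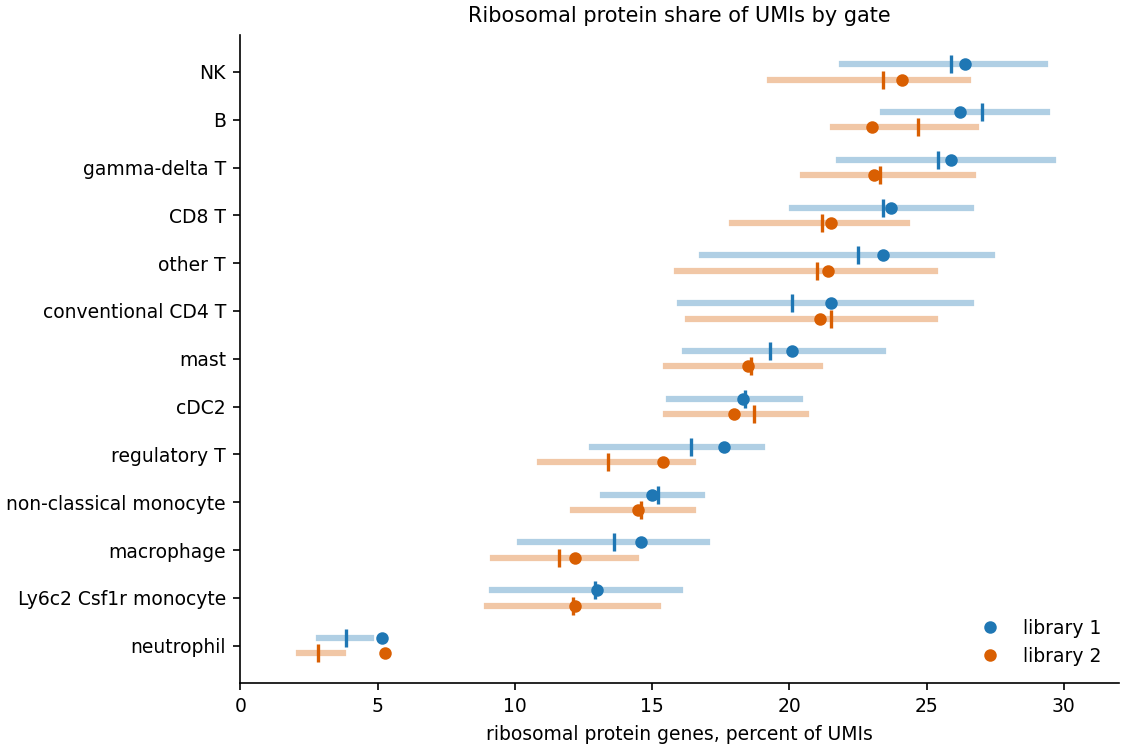
Percent of UMIs from the 77 ribosomal protein genes (horizontal axis) in 13 gates, library 1 in blue and library 2 in orange. Points are shares of summed UMIs, ticks are medians over cells and bars run from the lower to the upper quartile of cells. Neutrophils (5.14% and 5.25%) stand apart from all other gates.

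Ribosome-related lists chosen for comparison were ordered over gates in part like the ribosomal protein genes. The summed level of 22 other TOP genes, which encode elongation factors and similar proteins, ran from 12982 CPM in neutrophils to 36030 CPM in gamma-delta T cells in library 1. Its Spearman correlation with the ribosomal protein level over 13 gates was 0.93 in library 1 and 0.84 in library 2. For 26 ribosome biogenesis genes, which process ribosomal RNA in the nucleolus, it was 0.87 and 0.90, with 441 CPM in neutrophils and 2361 CPM in gamma-delta T cells of library 1. For 78 mitochondrial ribosomal protein genes, whose products serve the other ribosome of the cell, it was 0.24 and 0.53. For 12 genes of mTOR signalling and translation control it was -0.43 and -0.13. For the 13 transcripts encoded by the mitochondrial genome, which are no part of ribosome function in the cytosol, it was 0.68 and 0.83, close to the other TOP genes in library 2. The levels of all lists in a gate come from the same cells and share 1 total, so these values are descriptions.

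Cells in cycle were compared with the rest because ribosome synthesis precedes division. A cell was counted as cycling with at least 2 UMIs of Mki67 and Top2a together. In CD8 T cells the ribosomal protein share was 23.0% in 560 cycling cells and 24.2% in 1833 others of library 1, and 20.9% and 21.8% in library 2. In NK cells it was 26.1% and 26.6% in library 1 and 23.9% and 24.2% in library 2. Cycling cells of both gates thus held a slightly smaller share of summed UMIs in both libraries. The median over cells was also lower in cycling CD8 T cells (22.9% against 23.5% in library 1, 20.6% against 21.3% in library 2). In NK cells it was not lower (26.0% against 25.9% and 23.5% against 23.4%). In T cells of no narrower gate the libraries differed in direction, with 24.0% in cycling cells and 23.1% in others of library 1, and 21.1% and 21.5% in library 2. In macrophages of library 1 the share was higher in 64 cycling cells, 15.9% against 14.3%. Cycling cells were deeper throughout (median 15958 against 7204 UMIs in CD8 T cells of library 1), and the part of depth was not tested. The summed biogenesis list was higher in cycling cells in each of these comparisons, for example 2711 against 1789 CPM in CD8 T cells of library 1 and 2531 against 1680 CPM in library 2.

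Within the ribosomal protein UMIs, individual genes kept their proportions over gates with some exceptions. For each gene its percent of all ribosomal protein UMIs was taken in each gate, and its range was the log2 of the highest over the lowest gate, in the library where this was smaller. The median range over 75 genes was 0.57, and 8 genes had a range of at least 1. Without the neutrophil gate, a choice made after the data were seen, the median was 0.56 and 7 genes had such a range.

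Rplp0, the base of the P-stalk that recruits elongation factors, made up 0.768% and 0.913% of ribosomal protein UMIs in mast cells of library 1 and library 2. In Ly6c2 Csf1r monocytes it made up 2.08% and 2.61%, and the other gates lay between, so the mast cell gate was the lowest in both libraries. Rpl12, which lies at the base of the same stalk, was low in neutrophils (0.566% and 0.591%), non-classical monocytes (0.771% and 0.815%) and Ly6c2 Csf1r monocytes (0.839% and 0.902%). It was high in every lymphocyte gate, from 1.47% in CD8 T cells of library 1 to 1.89% in B cells of library 2, and so separated lymphocytes from monocytes. Mast cells, at 1.66% and 1.84%, were on the lymphocyte side.

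Rps9, a small-subunit protein near the entry of the messenger RNA channel, was lower in lymphocytes than in myeloid cells. It was 1.73% and 1.89% in NK cells, 2.52% and 2.79% in macrophages, 3.03% and 3.26% in Ly6c2 Csf1r monocytes and 5.44% and 6.22% in neutrophils. B cells, at 2.12% and 2.44%, were the highest lymphocyte gate, and mast cells, at 2.40% and 2.61%, were on the myeloid side here. Rps15a was highest in CD8 T cells (2.53% and 2.35%) and lowest in neutrophils (1.05% and 1.02%), with macrophages at 1.34% and 1.23%. Rps27, a zinc-binding small-subunit protein, was 0.533% and 0.470% in mast cells, 1.29% and 1.03% in B cells and 1.71% and 1.40% in neutrophils. Rpl36a was 0.146% and 0.169% in neutrophils and 0.624% and 0.578% in mast cells, but the neutrophil values rest on 15 and 36 UMIs. For each of these 6 genes the gates with the lowest and the highest value were the same in both libraries. The narrowest ranges belonged to Rpl22 (0.14, and 0.35 in the other library), Rpl18 (0.21 and 0.43) and Rps3a1 (0.24 and 0.34).

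**Figure D2:**
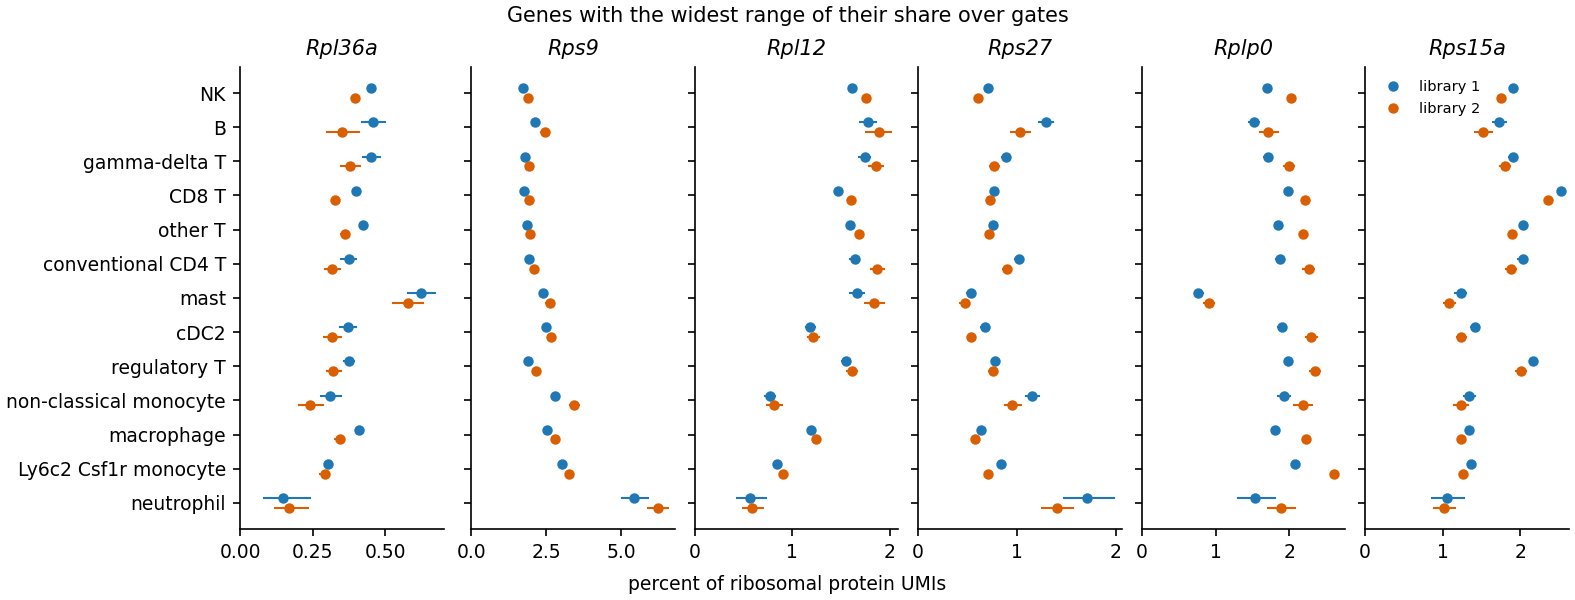
Percent of ribosomal protein UMIs (horizontal axes, each from 0) held by the 6 genes with the widest range over 13 gates, library 1 in blue and library 2 in orange, with exact 95% counting intervals. Rplp0 is lowest in mast cells (0.768% and 0.913%) and Rps9 highest in neutrophils (5.44% and 6.22%).

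Most ribosomal protein genes were lower in library 2 than in library 1 relative to all UMIs, and a few were higher. A gene was called where the ratio of its CPM was past 1.2-fold and the counting interval excluded 1, among genes with at least 50 UMIs in both libraries together. In macrophages 40 of 77 ribosomal protein genes were called lower in library 2, where 7.90% of 9533 genes were, and 1 was called higher, where 8.75% were. In NK cells 27 were called lower and 2 higher, where 5.11% and 7.57% of 10754 genes were. In CD8 T cells 29 were called lower and 2 higher, where 7.58% and 10.7% of 12091 genes were. Among genes of at least 100 CPM, a level closer to that of these members, 9.45% were called lower in macrophages, 5.67% in NK cells and 8.07% in CD8 T cells. The median log2 ratio of library 2 over library 1 was -0.28 in macrophages, -0.15 in NK cells and -0.18 in CD8 T cells, beside 0.02, 0.05 and 0.03 over all genes tested. The large and small subunits lay together, at -0.23 and -0.33 in macrophages, -0.11 and -0.21 in NK cells, and -0.12 and -0.20 in CD8 T cells.

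Summed together, transcripts encoded by the mitochondrial genome, whose level is often read as a sign of RNA quality, differed in the other direction in most gates. Of 13 tested over all kept cells, 0 were called lower in library 2 and 4 higher, where 7.36% and 9.77% of 14977 genes were, with the highest log2 ratio at mt-Atp6 (1.25). The log2 ratio of their summed CPM was 0.26 over all kept cells, 0.11 in macrophages, 0.29 in NK cells and 0.21 in CD8 T cells, and it was below 0 in neutrophils (-0.16). Single transcripts did not all go this way. Over all kept cells 8 had a counting interval above 0 and 3 below, with a median log2 ratio of 0.16. The median was 0.19 in NK cells, 0.11 in CD8 T cells and -0.04 in macrophages. With mitochondrial UMIs left out of the total, the ribosomal protein share was 14.7% and 12.4% in macrophages and 24.1% and 21.9% in CD8 T cells, still lower in library 2. Mitochondrial UMIs were a median of 1.24% and 1.47% of a cell's UMIs, so leaving them out could change these shares little. The part of RNA quality in the difference was not tested.

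Of the other 10 gates, all but neutrophils leaned the same way, less strongly in several. In regulatory T cells 34 genes were called lower and 1 higher (median log2 ratio -0.25), where 5.62% and 7.61% of all genes tested were. The counts were 26 and 3 in gamma-delta T cells (4.62% and 6.99%), 27 and 2 in T cells of no narrower gate (7.14% and 8.42%), and 29 and 2 in B cells (5.67% and 8.31%). Conventional CD4 T cells had 17 genes called lower and 5 higher (6.37% and 6.05%, median -0.08). Among myeloid cells other than neutrophils, Ly6c2 Csf1r monocytes had 19 and 3 (5.97% and 6.55%, median -0.11), non-classical monocytes 20 and 5 (6.65% and 5.38%) and mast cells 24 and 4 (5.34% and 7.99%). The most even of them were cDC2, with 16 called lower and 8 higher (7.55% and 6.74%) and a median of -0.05.

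The same genes recurred from gate to gate. Of 75 genes tested in all 13 gates, 31 had a log2 ratio below 0 in every gate, and 6 had a ratio above 0 in every gate. Over all 921 genes tested in every gate, 5.54% (51 genes, these members included) were below 0 throughout and 3.91% above 0. All gates share the same libraries, so this is no count of independent comparisons. Called lower in every gate were 5 ribosomal protein genes, beside 7 of all 921 genes (0.760%). The 6 genes above 0 throughout were Rps6, Rpl15, Rpl27, Rpl27a, Rpl7 and Rps10. Neutrophils, the gate with the fewest UMIs, were the exception, with 10 of 75 genes called lower and 14 higher (9.25% and 11.0% of 1783 genes) and a median of 0.02.

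Rpl35, a large-subunit protein near the exit of the peptide tunnel, stood apart. It was 500 CPM in library 1 and 152 CPM in library 2 in macrophages, 846 and 268 CPM in NK cells, and 708 and 208 CPM in CD8 T cells. Its log2 ratios were -1.72 (-1.84 to -1.60), -1.65 (-1.72 to -1.59) and -1.77 (-1.82 to -1.72). It was called lower in 12 of the 12 gates in which it was tested, with log2 ratios from -1.77 to -1.40. The next lowest value in these 3 gates was -0.84, for Rpl13a in macrophages.

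Rpl41, which encodes the shortest ribosomal protein, was next. It stood at 2689 CPM in library 1 and 1567 CPM in library 2 in macrophages (log2 ratio -0.78, interval -0.82 to -0.74), at 4670 and 2815 CPM in NK cells (-0.73) and at 4014 and 2321 CPM in CD8 T cells (-0.79). Rps29, a small zinc-binding protein of the small subunit, stood at 2840 and 1819 CPM in NK cells (log2 ratio -0.64) and at 2462 and 1514 CPM in CD8 T cells (-0.70). In macrophages Rpl13a stood at 232 and 130 CPM, with a log2 ratio of -0.84 (-0.98 to -0.71). All of these intervals lie far from 0.

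Rps6, the small-subunit protein phosphorylated by the S6 kinases, went the other way. It was 710 CPM in library 1 and 849 CPM in library 2 in macrophages (log2 ratio 0.26, interval 0.20 to 0.32), 1153 and 1501 CPM in NK cells (0.38) and 1032 and 1287 CPM in CD8 T cells (0.32). Rpl15 was 1118 and 1368 CPM in macrophages (0.29, interval 0.25 to 0.34), 1977 and 2449 CPM in NK cells (0.31) and 1708 and 2050 CPM in CD8 T cells (0.26). Rpl15 and Rps6 were each called higher in 12 of 13 gates. Rpl27 followed in NK cells (1453 and 1692 CPM, 0.22) and CD8 T cells (1577 and 1864 CPM, 0.24), and Rps10 in macrophages (1690 and 1856 CPM, 0.13).

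**Figure D3:**
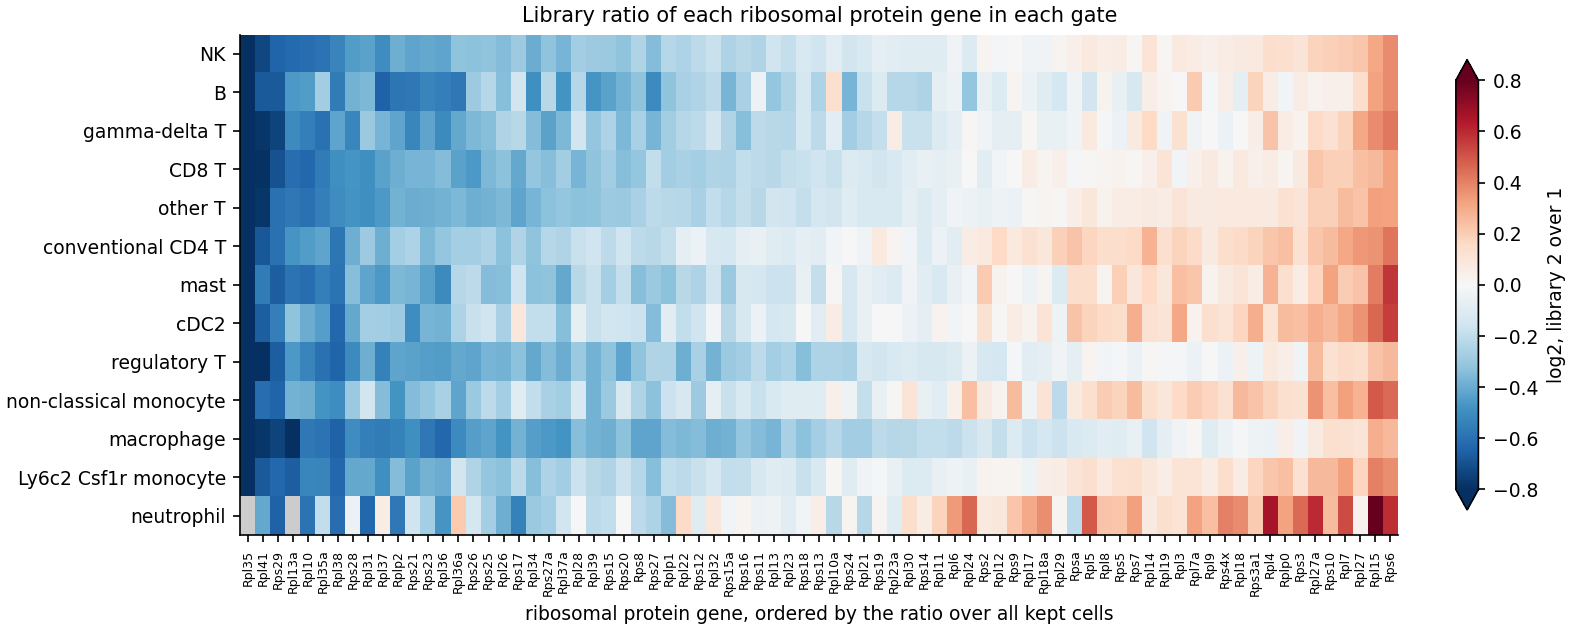
Log2 ratio of CPM, library 2 over library 1 (colour, blue below 0 and red above, scale ends at -0.8 and 0.8), for the 77 ribosomal protein genes (columns, ordered by the ratio over all kept cells) in 13 gates (rows). Grey marks genes under 50 UMIs. The same columns are blue or red in nearly every row, and the neutrophil row departs most.

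The ratio followed the length of the coding sequence. In macrophages the median log2 ratio was -0.57 for the 6 ribosomal protein genes with under 250 coding nucleotides, -0.50 for 10 genes from 250 to 350, -0.37 for 20 genes from 350 to 450, -0.17 for 19 genes from 450 to 600, -0.11 for 19 genes from 600 to 900 and -0.03 for the 3 longest. All 6 genes of the shortest class were called lower in macrophages, NK cells and CD8 T cells. The Spearman correlation of coding length with the ratio over 77 genes was 0.72 in macrophages, 0.76 in NK cells and 0.69 in CD8 T cells. Correlations over genes describe these 2 libraries, in which all genes share the same cells. Rpl35 (369 coding nucleotides), Rpl10 (642) and Rpl13a (609) lay below other ribosomal protein genes of their length.

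Genes outside the family showed part of the same pattern, mainly in the shortest classes. Over other genes of at least 100 CPM the Spearman correlation of coding length with the ratio was 0.12 in macrophages, 0.14 in NK cells and 0.18 in CD8 T cells. Among other genes of at least 100 CPM in macrophages, 35.2% of the 54 with under 250 coding nucleotides were called lower in library 2, against 3.85% of the 754 with 900 or more. Their medians were -0.16 and 0.07. In CD8 T cells these shares were 44.8% and 2.86%, and in NK cells 24.6% and 1.95%. At equal length the ribosomal protein genes were still lower in macrophages, with medians of -0.37 against 0.01 in the class from 350 to 450 and of -0.17 against 0.09 in the class from 450 to 600. In NK cells and CD8 T cells they were also lower in the class from 350 to 450, with medians of -0.27 against 0.00 and of -0.27 against -0.02. The class from 250 to 350 had medians of -0.36 against -0.04 in NK cells and of -0.37 against -0.08 in CD8 T cells. In these gates the gap closed with length: ribosomal protein genes of 600 to 900 coding nucleotides had medians of 0.06 and 0.02, beside 0.07 and 0.04 for other genes. Summed over genes of 450 or more coding nucleotides, the log2 ratio of ribosomal protein CPM was -0.15 in macrophages, -0.02 in NK cells and -0.04 in CD8 T cells, against -0.26, -0.13 and -0.14 over all 77. Length classes were chosen after the data were seen, and why length and ratio moved together was not tested.

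**Figure D4:**
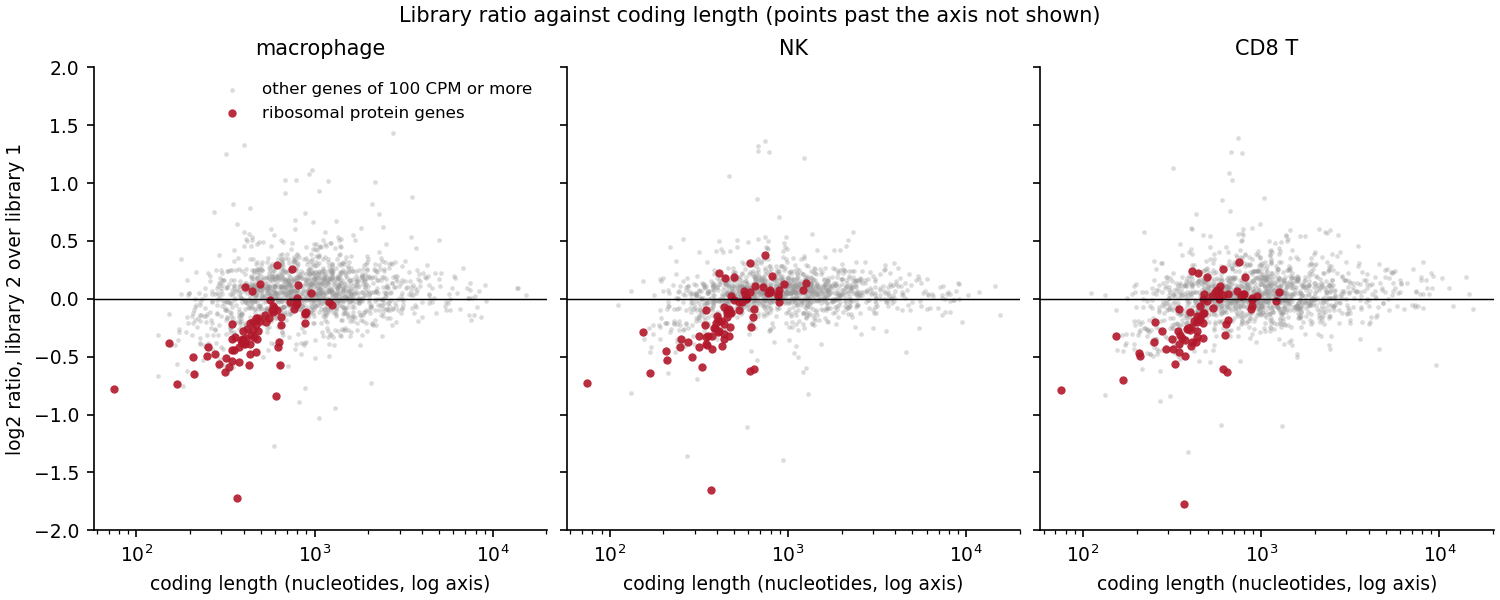
Log2 ratio of CPM, library 2 over library 1 (vertical axis), against coding length in nucleotides (log axis) in macrophages, NK cells and CD8 T cells. Red points are the 77 ribosomal protein genes and grey points other genes of at least 100 CPM; the red points climb from short to long genes (Spearman 0.72, 0.76 and 0.69), and Rpl35 is the lowest.

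Other genes of ribosome function did not share the whole difference. Their lists were not matched to the ribosomal protein genes in coding length, and the part of length was not tested. Ribosomal protein genes of 600 to 900 coding nucleotides alone had medians of -0.11 in macrophages, 0.06 in NK cells and 0.02 in CD8 T cells. Of 22 other TOP genes in macrophages, 1 was called lower and 1 higher, where 7.90% and 8.75% of all genes were, with a median log2 ratio of -0.04. Their medians were 0.07 in NK cells and 0.05 in CD8 T cells. Fau, which encodes a small-subunit ribosomal protein fused to a ubiquitin-like one and is not taken by the symbol rule, was their lowest at -0.42. Of 26 biogenesis genes 10 were called lower in macrophages and 1 higher (median -0.24, lowest Polr1b at -0.73), against the same shares of all genes. In NK cells 0 were called lower and 3 higher (median 0.13), where 5.11% and 7.57% of all genes were. The CD8 T cells had 3 called lower and 0 higher (median -0.12), where 7.58% and 10.7% were. With 26 genes, the counts in NK cells and CD8 T cells differ from these shares by few genes. The median of the biogenesis list thus lay below 0 in macrophages and above it in NK cells, whereas that of the ribosomal protein genes lay below 0 in both. Mitochondrial ribosomal protein genes had 6 of 77 called lower in macrophages, about the 7.90% of all genes, with a median of -0.08 and the lowest value at Mrpl23 (-1.29).

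Several paralogs took a cell-type-dependent part of their pair. Rpl36al, an intronless retrogene of Rpl36a that encodes nearly the same protein, made up 30.5% of the pair's UMIs in NK cells of library 1 and 37.3% in library 2. It made up 44.1% and 51.8% in macrophages and 56.8% and 60.5% in Ly6c2 Csf1r monocytes. Its own level was similar in these gates (522, 472 and 521 CPM in library 1), while Rpl36a went from 1191 CPM in NK cells to 598 CPM in macrophages and 396 CPM in monocytes. Rps27l, a paralog of Rps27 known as a p53 target, held 24.3% and 26.4% of its pair in macrophages and 25.3% and 31.4% in mast cells. In CD8 T cells it held 10.2% and 9.30%, and in B cells 3.60% and 4.73%. Rpl22l1, which can take the place of Rpl22, ranged less, with 20.2% and 22.3% in macrophages and 30.3% and 33.5% in NK cells.

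Other paralogs were minor. Over all kept cells Rpl7l1 stood at 79.8 CPM in library 1 and 77.3 CPM in library 2, Rps4l at 22.6 and 20.9 CPM, and Rpl6l at 9.23 and 6.52 CPM. Both Rps4l and Rpl6l are annotated as processed pseudogenes. Rps4l held 1.29% and 1.13% of its pair with Rps4x in macrophages but 0.265% and 0.231% in CD8 T cells. Rpl39l had 347 and 85 UMIs, of which CD8 T cells held 192 and 53, and its log2 ratio was -1.48 (-1.85 to -1.14). Rpl3l, a muscle paralog of Rpl3, had 61 and 42 UMIs. Non-classical monocytes held 16 and 5 of these UMIs (24.6 and 13.2 CPM) and Ly6c2 Csf1r monocytes 15 and 6 (2.51 and 1.41 CPM). Neutrophils, a gate of few UMIs, held 1 and 6 (5.02 and 14.8 CPM). Rpl10l and Rps12l1 had 0 UMIs. Rps12l1 is identical to Rps12 over 399 aligned bases, so its reads could not be told from those of the parent there and its 0 does not show that it was silent. Over all kept cells 3 of 12 tested paralogs were called lower in library 2 and 3 higher, where 7.36% and 9.77% of 14977 genes were. Rps27rt, an intronless copy identical to Rps27 over 341 aligned bases, stood at 27.0 and 44.8 CPM (log2 ratio 0.73), while Rps27 itself went from 1551 to 1297 CPM.

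Of the 319 symbols that contain -ps, 193 had UMIs and 63 had at least 50. They took 0.0523% of UMIs in library 1 and 0.0710% in library 2, the reverse of the order seen for the summed ribosomal protein genes. Much of this difference lay in Rpl10-ps3 (37.4 and 137 CPM over all kept cells) and Rpl9-ps6 (40.1 and 102 CPM). The 10 copies described here, each of at least 20 CPM in macrophages, NK cells or CD8 T cells in a library, held 57.5% and 66.3% of all UMIs of these symbols. Of the 63 tested over all kept cells, 17 were called lower and 14 higher, where 7.36% and 9.77% of 14977 genes were, and the median was -0.12 beside 0.04 over all genes tested. The sources used here do not say how reads that match both a copy and its parent were assigned, so all values of near-identical copies are uncertain.

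For 3 of the copies, 1 substitution that sets the copy apart from its parent is shown. Over the aligned bases, only reads that cover such a letter can tell copy from parent. Each pair of lines gives 30 coding bases of the parent and of the copy, with the differing base in capitals.
Rpl9: tcacgctgggcttccGatacaagatgcggt
Rpl9-ps6: tcacgctgggcttccAatacaagatgcggt
Rps10: gaggcggctttggtcGtggacgtggtcagc
Rps10-ps2: gaggcggctttggtcAtggacgtggtcagc
Rps7: caaggcgcagctgcgGgaactcaacatcac
Rps7-ps3: caaggcgcagctgcgTgaactcaacatcac
The copies' stretches lie at chr19:32466272-32466301, chr16:20822154-20822183 and chrX:152909984-152910013, all on the minus strand (GENCODE M21 on GRCm38). Counted from the first base of the parent's coding sequence, the substitutions are G266A in Rpl9-ps6, G473A in Rps10-ps2 and G123T in Rps7-ps3. Rpl9-ps6 differed from Rpl9 by 1 substitution over 692 aligned bases, Rps10-ps2 from Rps10 by 5 over 496 and Rps7-ps3 from Rps7 by 4 over 651. The chemistry tags the 3′ end of transcripts. Of the last 300 bases of the parent, 300 aligned with Rpl9-ps6, 69 with Rps7-ps3 and 251 with Rps10-ps2. These held 0, 0 and 5 substitutions. Over these bases no letter separates Rpl9-ps6 or Rps7-ps3 from the parent. Rpl10-ps3 had 0 substitutions over the 737 bases that aligned to Rpl10, of the 768 bases annotated for it. Rps6-ps4 (750 bases), Rps13-ps2 (453), Rps23-ps1 (425) and Rpl10a-ps1 (648) also had 0. The most diverged of the 10 had 5 substitutions.

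Rpl10-ps3, a copy of Rpl10 at chr9:50344201-50344968 (minus strand) that the annotation lists as a protein-coding gene of 1 exon, differed most in the upward direction. It went from 35.3 CPM in library 1 to 125 CPM in library 2 in macrophages, from 57.4 to 211 CPM in NK cells and from 32.4 to 120 CPM in CD8 T cells. The log2 ratios were 1.82 (1.62 to 2.04), 1.87 (1.75 to 2.00) and 1.88 (1.77 to 2.00), and all 11 gates in which it was tested lay between 1.13 and 2.34. The parent Rpl10 went from 2996 to 2008 CPM over all kept cells (log2 ratio -0.58), so the copy stood at 1.25% of the parent in library 1 and at 6.80% in library 2. Added together, Rpl10 and its 6 copies went from 3033 to 2145 CPM (-0.50, interval -0.51 to -0.49). The difference in the copy's CPM was therefore far smaller than the difference in the parent's.

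Rpl9-ps6, likewise annotated as protein coding with 1 exon, went from 40.1 to 102 CPM over all kept cells (log2 ratio 1.35, interval 1.29 to 1.41) and was above 0 in 11 of 11 gates, while Rpl9 was at 0.07. Rps2-ps10 (1.32), Rps7-ps3 (1.04), Rps13-ps2 (0.57) and Rps26-ps1 (0.22) were also above 0 in every gate tested. Rps23-ps1 (0.12) and Rpl10a-ps1 (0.01) lay near 0. In the downward direction, Rps10-ps2 went from 30.2 to 6.42 CPM (-2.23, interval -2.39 to -2.08) and Rps6-ps4 from 20.3 to 6.05 CPM (-1.74, interval -1.91 to -1.58), below 0 in all 6 and all 5 gates tested. Their parents Rps10 (0.21) and Rps6 (0.34) were both higher in library 2. Rpl10-ps3, Rps10-ps2 and Rps6-ps4 therefore each lay on the other side of 0 from the parent. So did Rps23-ps1, Rps26-ps1 and Rps13-ps2, with parents at -0.39, -0.37 and -0.15. Rps2-ps10 and Rpl10a-ps1 did too, but Rps2 was near 0 (-0.03) and the interval of Rpl10a-ps1 included 0 (Rpl10a at -0.12). Rpl9-ps6 and Rps7-ps3 lay on the same side as Rpl9 (0.07) and Rps7 (0.05). Copies with 0 substitutions were found at -1.74, 0.01, 0.12, 0.57 and 1.87, on both sides of 0.

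**Figure D5:**
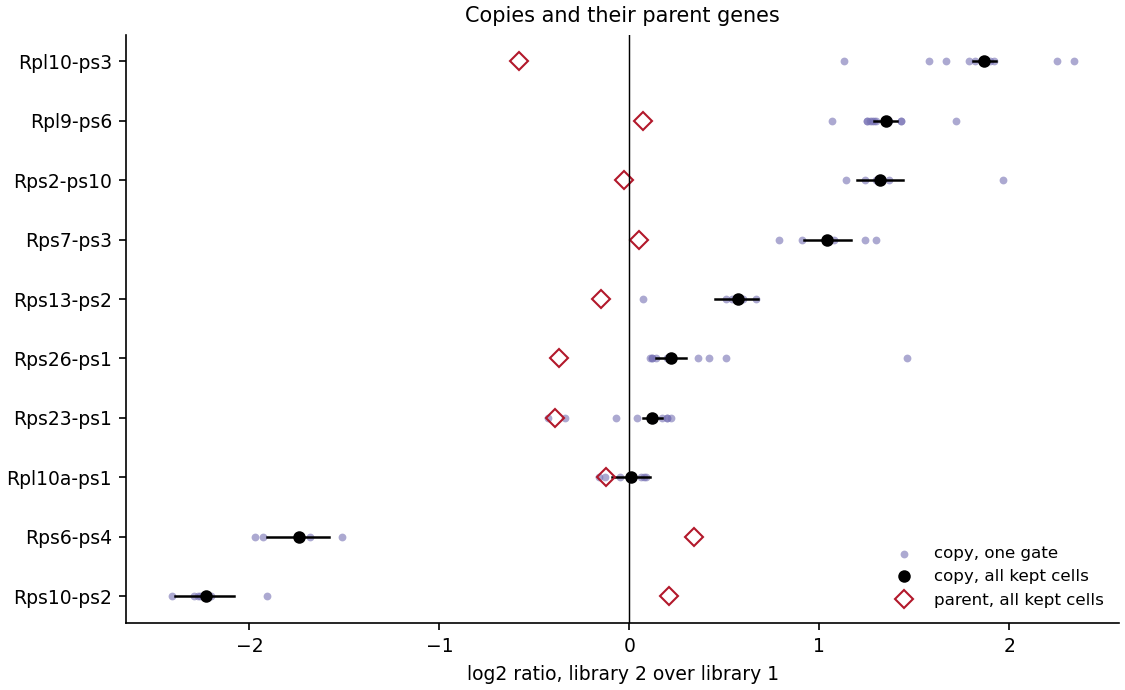
Log2 ratio of CPM, library 2 over library 1, for the 10 copies described. Black points are all kept cells with exact 95% counting intervals, purple points single gates with at least 50 UMIs and open red diamonds the parent gene. Rpl10-ps3 (1.87) and Rps10-ps2 (-2.23) are the extremes, and their parents (-0.58 and 0.21) lie on the other side of 0.

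The 12 symbols that only share the prefix took 0.0232% of UMIs. Among the Rps6k kinases, Rps6ka1 stood at 81.2 and 75.9 CPM over all kept cells, Rps6kb1, the S6 kinase 1 that phosphorylates Rps6, at 44.4 and 49.2 CPM, and Rps6ka3 at 40.5 and 43.9 CPM. Their log2 ratios were -0.10, 0.15 and 0.11, all inside the 1.2-fold limit. Rps19bp1, a regulator of the deacetylase Sirt1 that binds Rps19, stood at 33.0 and 31.0 CPM (-0.09). These values are far below those of nearly all ribosomal protein genes and show no common direction.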

How the data were processed

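The matrix holds UMI counts per gene and barcode as whole numbers, not normalised, as deposited by the authors. Per the file headers, Cell Ranger 6.1.2 made them. The submitters' processing notes name this tool and the build mm10. No source used here names the annotation. Library totals were 86227008 and 59459790 UMIs. The cell filter required 500 genes per barcode and allowed up to 10% of UMIs from mitochondrial genes. Gates were fixed from marker genes. The fixed classical monocyte gate held 5 cells, since Lyz2 had 1043 UMIs in all barcodes, so a gate on Ly6c2 and Csf1r was added after the data were seen. No doublet caller was run; barcodes with markers of several lineages were left out. The members and lists were chosen with earlier results of these data known.

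UMIs were summed per gate and library. Ratios used a pseudocount of 0.5 UMI and exact conditional binomial intervals at 95%, shares Clopper-Pearson intervals. There is no test, since each suffix is 1 library. Named genes were the 3 highest and 3 lowest ratios at 50 or more CPM in macrophages, NK and CD8 T cells, copies of at least 20 CPM (2 are not reported here), the 6 widest and 3 narrowest composition ranges, paralogs, the 5 most abundant genes, symbols that only share the prefix and list extremes. Other names, such as Rpl10 against coding length, were chosen after their values were seen. Of 55401 gene identifiers 54349 matched GENCODE M21, which gave coordinates and coding lengths. Starts came from RefSeq (GRCm38.p6), and copies were aligned to parent transcripts with Biopython 1.88. Python 3.11.15, scipy 1.17.1 and numpy 2.4.6 were used. Ratios and calls were also tested on simulated data with known changes. Alternatives covered scaling, cell filters, gate minimums, a minimum of 200 UMIs per gene, thinning to 3000 UMIs and adding copies to parents.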

Additional observations from a re-analysis of the deposited data

Results flagged for a closer look

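Among the members called in any of the 13 gates, Rpl24, a large-subunit protein, was the 1 gene called in opposite directions. In B cells the log2 ratio, library 2 over 1, stood at -0.31 (-0.52 to -0.11), from 676 and 264 UMIs, and in neutrophils at 0.46 (0.06 to 0.88), from 69 and 194 UMIs. Both are small gates, and over all kept cells the ratio was -0.03. The difference between the gates was not tested.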

How the results depend on the processing

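Of 265 recomputed values 192 stayed within the counting interval or, for counts of genes, within 1.5 times, and 73 moved. The log2 ratios among the 265 also number 192, and 0 of them changed sign. The setting with a minimum of 200 UMIs does not enter the log2 ratios, so those of its values could not change. Counts of ribosomal protein genes called lower in macrophages, NK cells and CD8 T cells all stayed within 1.5 times. The log2 ratio of summed ribosomal protein CPM (library 2 over library 1) was -0.26 in macrophages, -0.13 in NK cells and -0.14 in CD8 T cells. Scaled to UMIs other than ribosomal protein and mitochondrial ones it was -0.29, -0.17 and -0.18, and centred on the median of all genes -0.28, -0.18 and -0.17. With doubled gate minimums it was -0.30 in macrophages and -0.14 in CD8 T cells, thinned to 3000 UMIs -0.23 in macrophages and -0.14 in NK cells. With cycling barcodes left out, an alternative added after the data were seen, it was -0.13 in NK cells and -0.15 in CD8 T cells. Coding length, also added then, moved it most: -0.41, -0.29 and -0.30 for genes under 450 coding nucleotides, and -0.15, -0.02 and -0.04 for longer ones. Genes called higher numbered 1 in macrophages, 2 in NK cells and 2 in CD8 T cells. In macrophages they were 0 with that scaling or doubled gates and 2 when thinned or without cycling barcodes. In NK cells they were 1 when centred. In CD8 T cells they were 1 with that scaling, when centred, without a cell filter, with doubled gates or with copies added to the parent. The ribosomal protein share in macrophages was 14.6% in library 1 and 12.2% in library 2: 15.1% and 12.3% with doubled gates, 13.6% and 11.6% as the median over cells, 14.7% and 12.4% without mitochondrial UMIs, and 14.6% in library 1 with the stricter cell filter. In CD8 T cells it was 23.7% and 21.5%: 23.8% and 21.6% with the stricter filter, 23.7% and 21.4% with doubled gates, 23.4% and 21.2% as the median over cells, and 24.1% and 21.9% without mitochondrial UMIs. The length classes hold fewer genes than the full set. The cause of these shifts, those of the length classes included, was not tested. No paired analysis was possible because each suffix is 1 library without a genotype. Thinning left out 567 and 456 shallower cells. Small gates limit what can be seen: in neutrophils 2 ribosomal protein genes had under 50 UMIs, and copies could be compared in 5 to 11 gates.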
